A study of Macaca mulatta with 11 samples.

Results

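Ion channels, ion pumps and ligand-gated receptors of rhesus monkey (Macaca mulatta) cumulus cells were described across maturation. Members were taken by gene symbol from the main families: potassium (KCN), calcium (CACN) and sodium (SCN) channels, chloride channels (CLCN, CLIC, ANO), TRP, HCN and acid-sensing channels. The GABA, glycine, glutamate, nicotinic and P2X receptors, the ITPR, RYR, ORAI and STIM genes, and the ATP1 and ATP2 pumps completed the set. Of 14132 genes with 1 symbol on the array, 203 were members, each represented by the probe set with the highest mean over all 11 arrays. The pattern also took in a few proteins that bind channels, such as the KCNIP genes, which are grouped below with accessory subunits. Members were set by gene symbol, with earlier results of these data known.

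Cumulus cells are the somatic cells packed around an oocyte, with which they form a cumulus-oocyte complex. The pre-maturation group (PM, n = 4) came from immature complexes of FSH-stimulated animals. The in vitro matured group (IVM, n = 3) had FSH followed by maturation in culture, and the in vivo matured group (VVM, n = 4) had FSH followed by maturation in the animal with hCG, so FSH was common to all 3 groups. The labels name no separate animals for the replicates, and the spread behind each p-value is that between these samples, which may be technical. Values are log2 intensities, listed in replicate order, and differences are log2 differences ± the standard error of the limma fit. The array medians lay between 5.34 and 5.53, the array has no detection calls here, and a fold against a group mean below those medians is at best a lower bound. A call here means an adjusted p under 0.05, and levels are not compared between genes.

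Channels and pumps set the membrane potential and move calcium, chloride and potassium across cell and store membranes. In granulosa-lineage cells, gonadotropins act through cyclic AMP and calcium. Calcium leaves the endoplasmic reticulum through IP3 and ryanodine receptors, STIM proteins sense the emptied store and open ORAI channels, and SERCA and plasma membrane pumps remove calcium from the cytosol.

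The arrays carried technical differences that run with the groups. The bacterial hybridization controls lay at 9.89 to 10.28 in PM, 11.46 to 12.18 in IVM and 10.41 to 11.32 in VVM, and the 3' minus 5' difference of the control transcripts at 3.20 to 3.45, 3.67 to 4.36 and 3.44 to 3.90. Of 20 granulosa and cumulus markers 16 were measured, and their summed level lay at 15.47 to 15.75, 15.37 to 15.63 and 15.20 to 15.58 in PM, IVM and VVM. Of 18 leukocyte markers 12 were measured, with summed levels of 10.66 to 10.83 in PM, 9.92 to 10.24 in IVM and 9.89 to 12.66 in VVM. The VVM range was set by VVM 2 at 11.32 and VVM 3 at 12.66, and 8 of the 12 were higher and 2 lower in VVM than in PM. In PM the sum was carried by CSF1R, at 9.95 to 10.21 there and 6.49 to 8.88 after maturation. TYROBP lay at 4.51 to 4.94 in PM and 6.25 to 9.90 in VVM, LYZ at 3.36 to 4.10 and 4.79 to 9.51, and PTPRC at 3.49 to 3.87 and 3.98 to 6.89, so that all 4 VVM arrays lay above PM. Of 19 oocyte markers 13 were measured, with a summed level of 11.45 in PM 1 and 9.80 to 10.41 in the other 10 arrays. Of 10 theca and interstitial markers 7 were measured, with summed levels of 8.37 to 9.04, 9.12 to 10.12 and 9.39 to 10.84 in PM, IVM and VVM. Of 9 erythroid markers 4 were measured, with summed levels of 8.92 to 10.49, 8.10 to 8.52 and 9.18 to 11.03, and the haemoglobin gene HBB was lower in IVM than in VVM by -2.76 (adjusted p = 0.000933). All 10 endothelial markers were measured, at 9.46 to 10.03, 10.05 to 10.31 and 9.47 to 10.60. In VVM against PM 4 of these were higher and 1 lower. VWF was higher there by 2.32 (adjusted p = 0.00354) and ERG lower by -2.63 (adjusted p = 0.00167). In IVM against PM 4 were also higher and 1 lower, ERG by -3.67 (adjusted p = 0.000314). Of 7 smooth muscle markers 4 were measured, at 8.68 to 10.88, 8.54 to 9.80 and 8.31 to 9.85. In bulk RNA, fewer cells of a type and less RNA per cell cannot be told apart. The part of these differences in the results below was not tested beyond the alternatives given.

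Against PM, most members that passed the test were higher after maturation, in culture and in the animal alike. In IVM against PM, 90 of 203 members were called (44.3%, against 45.9% of all genes), 76 higher (all genes 25.0%) and 14 lower (all genes 20.9%). In VVM against PM, 75 were called (36.9%, against 39.8%), 56 higher (all genes 18.0%) and 19 lower (all genes 21.8%). The total shares thus lay near the background, and the split lay toward rises. The groups did not overlap for 104 members in IVM against PM (51.2%, all genes 50.3%) and for 95 in VVM against PM (46.8%, all genes 41.9%).

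The member median was 0.30 in IVM against PM (all genes 0.12) and 0.23 in VVM against PM (all genes 0.04). After centring each array on its median, 56 members were higher and 19 lower in IVM against PM, so that 74.7% of calls in place of 84.4% were rises. The same centring gave 40 higher and 25 lower in VVM against PM, 61.5% in place of 74.7%. The calls of all genes shifted as well. Rises made up 37.9% of them in place of 54.5% in IVM against PM. In VVM against PM the all-gene share was 32.6% in place of 45.3%. Only 8 of the 76 rises in IVM reached 2-fold, as did 10 of the 14 falls. In VVM, 14 of the 56 rises and 10 of the 19 falls did. All genes showed a like contrast. In IVM, 718 of their 3539 rises and 1810 of their 2953 falls reached 2-fold. In VVM, 798 of their 2548 rises and 1603 of their 3074 falls did. Of the 95 members with a mean below 5.45, the median array median, 31 rose and 2 fell in IVM (32.6% and 2.11%). Of the 3854 such genes of the whole array 24.2% were higher and 5.19% lower. For these genes the median difference was 0.21, and for these 95 members it was 0.29. With the hybridization controls as a covariate in limma, the IVM against PM comparison called 0 of 203 members and 2 of 14132 genes. There, 28 members and 2164 of all genes had an unadjusted p under 0.05. The same fit called 24 of 203 members in VVM against PM, 15 higher and 9 lower, and 1577 of 14132 genes. Probe sets of the same gene often differed. Of 36 members called in IVM against PM that have several probe sets, 10 were called the same way on all of them, and of 37 in VVM against PM 13 were. CACNB3 and CLCN3 in IVM, and CLCN3, CLIC5, KCNK5 and ATP1B1 in VVM, had a probe set called the other way.

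**Figure D1:**
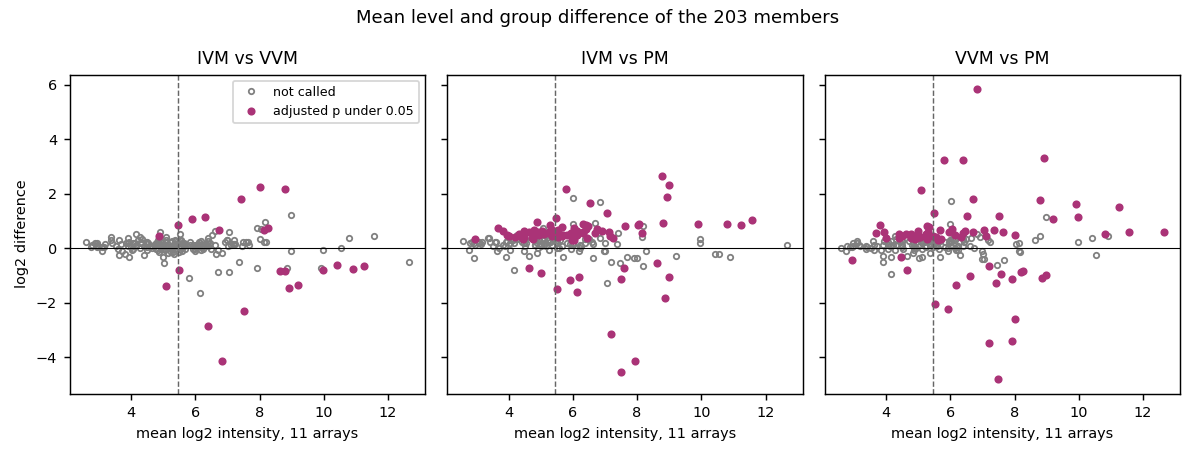
Each point is a member, with its mean log2 intensity over 11 arrays on the x axis and its log2 difference between groups on the y axis; filled points passed an adjusted p of 0.05 and the dashed line marks 5.45. The dim members left of the line lie mostly above 0 against PM by less than 1, and the largest falls reach -4.80.

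In IVM against VVM, 23 of 203 members were called (11.3%, against 16.7% of all genes), 10 higher (all genes 9.06%) and 13 lower (all genes 7.63%). The groups did not overlap for 53 members (26.1%, all genes 28.6%). With the hybridization controls as a covariate in limma, 0 members were higher and 2 lower in IVM, and 329 of 14132 genes were called. In that fit, 28 of 203 members and 2821 of 14132 genes had an unadjusted p under 0.05. Both comparisons against PM use the same PM arrays, and a call present in only 1 of them does not show that IVM and VVM differ unless the direct test is given. No comparison called 89 of the members, and 85 members had every group mean at or below the array medians.

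**Figure D2:**
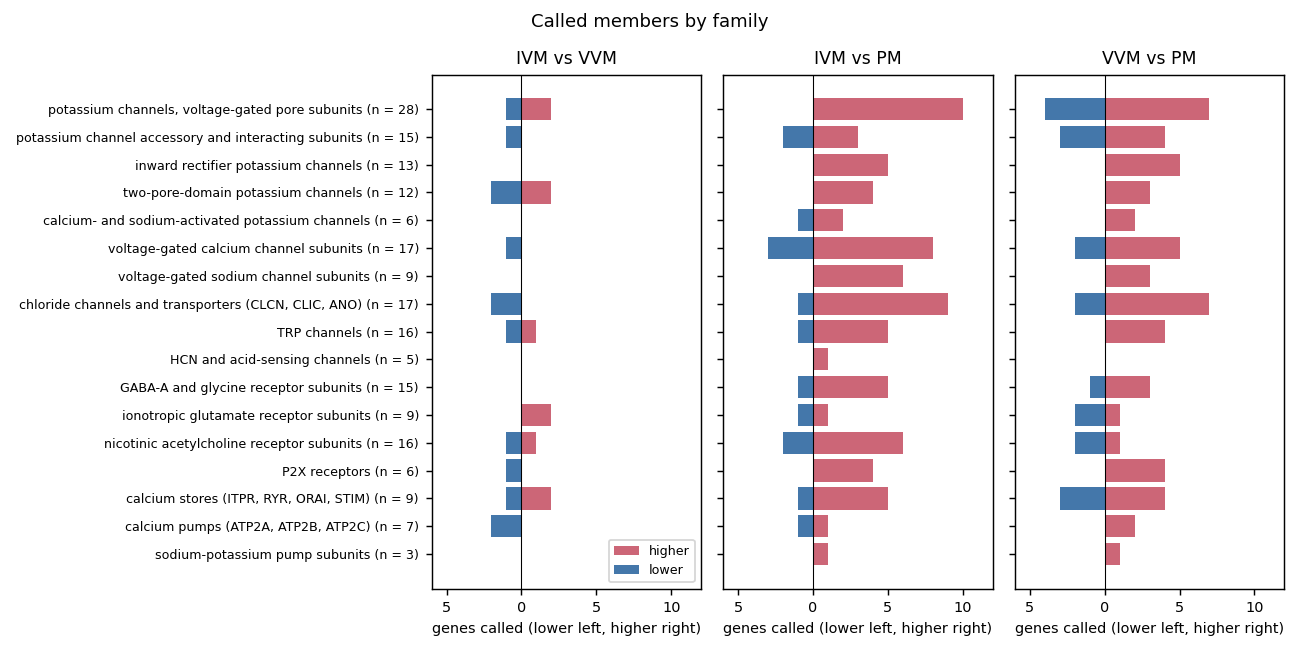
Bars count the members of each family that were higher (right) or lower (left) at an adjusted p under 0.05 in the 3 comparisons, with the number measured in brackets. Of 28 voltage-gated potassium pore subunits, 10 rose and 0 fell in IVM against PM (35.7% called, all genes 45.9%). In VVM against PM 7 rose and 4 fell (39.3% called, all genes 39.8%).

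Among ligand-gated receptors, the GABA-A subunit GABRP, the nicotinic subunits CHRNA3 and CHRNA5 and the glutamate receptor subunit GRIA1 fell from PM in both matured groups. GABRP (NCBI gene 701113), the pi subunit of the GABA-A receptor, lay at 10.28, 10.83, 9.05 and 11.75 in PM, at 5.88, 5.76 and 6.14 in IVM and at 5.62, 5.69, 5.87 and 5.50 in VVM. All PM arrays lay far above all matured arrays, and IVM and VVM overlapped. GABRP was lower by -4.55 ± 0.46 in IVM (23.5-fold, adjusted p = 4.7e-05) and by -4.80 ± 0.43 in VVM (27.9-fold, adjusted p = 2.41e-05). The other 14 GABA-A and glycine receptor subunits held 5 rises in IVM and 3 in VVM (all genes higher 25.0% and 18.0%). With GABRP, 6 of 15 were called in IVM (all genes 45.9%) and 4 of 15 in VVM (all genes 39.8%). Both shares lay below those of all genes. The rises were led by GABRA3 (0.60 and 0.53), the glycine receptor GLRA1 (0.59 and 0.33), GABRE (0.51 in IVM) and GABRA4 (0.59 in VVM). All values of GABRA3, GLRA1 and GABRA4 lay below the median of their array.

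CHRNA5, an accessory subunit of neuronal nicotinic receptors, lay at 7.21, 6.03, 6.89 and 6.55 in PM, at 4.68, 5.42 and 5.42 in IVM and at 3.94, 5.31, 4.65 and 4.62 in VVM. PM was above every matured array. The falls were -1.50 ± 0.34 in IVM (adjusted p = 0.00531) and -2.04 ± 0.31 in VVM (adjusted p = 0.000636). CHRNA3 (716571), which forms receptors with CHRNA5, fell by 1.07 ± 0.16 in IVM (adjusted p = 0.000459) and by 1.34 ± 0.15 in VVM (adjusted p = 7.55e-05), from 6.77 to 7.15 in PM to 5.39 to 6.18 after maturation. Both genes fell on 2 of their 2 probe sets.

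CHRNA7, the subunit of homomeric calcium-permeable receptors, lay at 10.66, 10.96, 11 and 10.68 in PM, at 11.01, 10.15 and 10.41 in IVM and at 11.35, 11.09, 11.25 and 11.39 in VVM. IVM lay below VVM on every array while PM overlapped IVM. Its difference of IVM from VVM was -0.75 ± 0.19 (adjusted p = 0.0265), shown by 3 of 4 probe sets, and leaving out IVM 2 (-0.56), IVM 3, VVM 1, VVM 3 or VVM 4 ended the call. On the probe set used here IVM was not called against PM (-0.30, adjusted p = 0.216). The other probe sets of CHRNA7 gave -0.95 (adjusted p = 0.0125), -1.22 (adjusted p = 0.000971) and 0.62 (adjusted p = 0.0129) for IVM against PM. CHRNA9 was higher in IVM than in VVM by 1.15 ± 0.32 (adjusted p = 0.0382) and than in PM by 0.90 ± 0.32 (adjusted p = 0.0411). Its IVM values of 6.89, 6.49 and 7.79 included a high IVM 3, without which the differences were 0.79 and 0.54 and neither was called. Either call was also lost without several other single arrays.

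GRIA1 (714117), a pore subunit of AMPA-type glutamate receptors, lay at 7.07, 7.44, 6.82 and 6.83 in PM, at 5.96, 6.10 and 5.59 in IVM and at 5.08, 4.49, 4.76 and 4.90 in VVM. On this probe set the 3 groups did not overlap, with IVM between PM and VVM. GRIA1 was lower than PM by -1.16 ± 0.19 in IVM (adjusted p = 0.000988) and by -2.23 ± 0.18 in VVM (adjusted p = 1.51e-05), and higher in IVM than in VVM by 1.07 ± 0.19 (adjusted p = 0.00535). Its other probe set, at means of 5.57 in PM, 5.65 in IVM and 4.78 in VVM, had the same 2 differences involving VVM called, while its IVM difference from PM was 0.08 (adjusted p = 0.748).

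GRIN2C (699216), an NMDA receptor subunit, read 7.69, 8.01, 7.86 and 7.32 in PM, 7.28, 7.98 and 9.57 in IVM and 6.06, 6.65, 6.41 and 6.70 in VVM. VVM lay below every other array, and IVM was widely spread. GRIN2C was higher in IVM than in VVM by 1.82 ± 0.42 (adjusted p = 0.0174), or by 1.18 without IVM 3, and lower in VVM than in PM by -1.26 ± 0.39 (adjusted p = 0.0295). The latter call was lost without PM 1, PM 2, PM 3, VVM 1 or VVM 3. On the other probe sets of GRIN2C the VVM difference from PM was -0.26 (adjusted p = 0.279) and 0.25 (adjusted p = 0.221). The first of these was higher in IVM than in PM by 0.97 (adjusted p = 0.00216) and than in VVM by 1.23 (adjusted p = 0.00225). The second gave 0.34 and 0.09, neither called.

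P2X receptors are ATP-gated cation channels, and 4 of the 6 measured were higher against PM in each matured group (66.7%, all genes higher 25.0% in IVM and 18.0% in VVM). P2RX4 lay at 9.15, 9.59, 9.30 and 9.80 in PM, at 9.85, 9.84 and 9.71 in IVM and at 10.69, 10.37, 10.84 and 10.56 in VVM. VVM was above all other arrays. P2RX4 rose in VVM against PM by 1.15 ± 0.15 (adjusted p = 0.000258), and IVM was lower than VVM by -0.81 ± 0.17 (adjusted p = 0.00966). P2RX4 is also known from macrophages. Without PM 1, VVM 2 and VVM 3 together the differences were 1.06 and -0.83, both called, but VVM 1 and VVM 4 also carried raised leukocyte markers, with TYROBP at 6.51 and 6.25 against at most 4.94 in PM. Their part in the P2RX4 values was not tested. P2RX2, P2RX3 and P2RX6 rose in both groups: P2RX2 by 0.75 and 0.71 in IVM and VVM, P2RX6 by 0.62 and 0.48, and P2RX3 by 0.49 and 0.34. The VVM call of P2RX6 was lost without PM 1, PM 3, VVM 1, VVM 2 or VVM 4. After centring or a further quantile normalization, the VVM calls of P2RX6 and P2RX3 were lost. On its other probe set P2RX2 differed by 0.30 in IVM (adjusted p = 0.123) and by 0.59 in VVM (adjusted p = 0.00678). P2RX1 rose in IVM by 0.47 ± 0.11 (adjusted p = 0.00573).

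The voltage-gated calcium channel family was led by the fall of an auxiliary subunit. CACNA2D2 (702429), an alpha2delta subunit that raises channel density at the membrane, lay at 9.40, 8.97, 10.20 and 8.71 in PM, at 5.93, 6.22 and 6.34 in IVM and at 5.53, 6.25, 6.09 and 5.48 in VVM. Every PM array lay above every matured array, and IVM and VVM overlapped. It was lower by -3.16 ± 0.32 in IVM (8.92-fold, adjusted p = 4.58e-05) and by -3.48 ± 0.29 in VVM (11.2-fold, adjusted p = 1.91e-05). CACNB3, a cytoplasmic beta subunit, fell by 1.06 ± 0.14 in IVM (adjusted p = 0.000204) and by 0.97 ± 0.13 in VVM (adjusted p = 0.000235), while its other probe set rose by 0.72 in IVM.

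CACNA2D4, another alpha2delta subunit, lay at 8.46, 8.47, 8.75 and 8.95 in PM, at 8.26, 7.92 and 8.21 in IVM and at 9.13, 8.91, 9.12 and 8.74 in VVM. IVM lay below all other arrays, and PM and VVM overlapped. Its fall in IVM was -0.53 ± 0.16 against PM (adjusted p = 0.0213) and -0.85 ± 0.16 against VVM (adjusted p = 0.00632), on 2 of 2 probe sets. The pore subunits that were called all rose by less than 2-fold. In both IVM and VVM, the N-type subunit CACNA1B rose by 0.82 and 0.59, the L-type subunit CACNA1C by 0.63 and 0.47 and the T-type subunit CACNA1I by 0.78 and 0.68. CACNA1D, also of the L type, rose in IVM by 0.45 (adjusted p = 0.0144), and CACNA1F, another L-type subunit, in VVM by 0.66 ± 0.15 (adjusted p = 0.0056).

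Of the 9 voltage-gated sodium channel genes, 6 were higher in IVM and 3 in VVM than in PM, and all 9 had positive differences in both. Of all genes 25.0% and 18.0% were higher. Of the 9, 3 had a highest group mean above 5.45, and differences of the dimmer genes of the whole array lay mostly above 0, as given above. SCN4A, a pore subunit best known from skeletal muscle, lay at 5.96, 6.08, 5.92 and 6.09 in PM, at 6.83, 6.83 and 6.85 in IVM and at 6.76, 6.74, 6.62 and 6.43 in VVM. Both matured groups lay above PM, by 0.83 ± 0.11 (adjusted p = 0.00025) and 0.63 ± 0.10 (adjusted p = 0.000925). SCN3B, an accessory beta subunit, rose by 0.61 in IVM and by 0.80 in VVM. SCN10A rose by 0.48 and 0.39 in the same order, with no value above 4.65, which lies below every array median.

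Among potassium channels, KCNG3 had the largest difference of any member in VVM against PM and in IVM against VVM. KCNG3 (712838), an electrically silent subunit that modifies other voltage-gated potassium channels, lay at 4.13, 4.11, 4.81 and 3.95 in PM, at 7.87, 5.07 and 4.89 in IVM and at 10.29, 9.82, 11.05 and 9.23 in VVM. VVM lay above all others, and within IVM replicate 1 stood nearly 3 log2 units above the rest. KCNG3 rose in VVM against PM by 5.85 ± 0.59, a 57.5-fold difference (adjusted p = 5.12e-05), and was lower in IVM than in VVM by -4.15 ± 0.64 (adjusted p = 0.00249). The IVM difference from PM of 1.69 ± 0.64 did not pass (adjusted p = 0.0541). On the other probe set of KCNG3 the rise in VVM was also called, and the difference between IVM and VVM was not.

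KCNA5 (711886), the delayed rectifier Kv1.5, lay at 8.96, 9.94, 9.46 and 7.83 in PM, at 8.32, 8.83 and 8.94 in IVM and at 6.64, 7.21, 6.02 and 5.86 in VVM. PM and IVM overlapped, and VVM lay below both. The VVM fall was -2.61 ± 0.42 against PM (adjusted p = 0.000857), and IVM was higher than VVM by 2.26 ± 0.45 (adjusted p = 0.00889), a difference not called on the other probe set. KCNH2 (714174), the hERG channel, read 7.60, 8.46, 7.06 and 8.61 in PM, 9.96, 10.86 and 10.02 in IVM and 10.29, 7.81, 9.56 and 8.63 in VVM. IVM lay above PM by 2.34 ± 0.55 (5.08-fold, adjusted p = 0.00628), and the 4 VVM arrays spanned both groups, with a difference of 1.14 ± 0.50 from PM that did not pass (adjusted p = 0.109).

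KCNA1, the delayed rectifier Kv1.1, was higher in IVM than in PM by 1.12 ± 0.13 (adjusted p = 0.000128) and than in VVM by 0.85 ± 0.13 (adjusted p = 0.00276), at 5.99, 6.35 and 6.21 against at most 5.14 in PM and 5.60 in VVM. KCNQ1, which carries slow delayed rectifier current, and KCND1, an A-type channel, fell in VVM by 1.13 ± 0.22 (adjusted p = 0.00317) and by 1.0 ± 0.22 (adjusted p = 0.00565). In IVM the same genes differed from PM by -0.37 and -0.36 and were not called. The remaining pore subunit rises were small, such as KCND2 by 0.74 in IVM and 0.58 in VVM and KCNH6 by 0.71 and 0.60, and all values of KCND2 lay below the array medians.

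The tandem-pore potassium channels carry background potassium current, and 4 of the 12 measured differed between IVM and VVM (33.3%, all genes 16.7%), 2 higher and 2 lower in IVM. The calls of KCNK12 and KCNK17 among these were each lost on leaving out any 1 of 5 arrays. KCNK3 (699287), the acid-sensitive channel TASK-1, lay at 7.46, 8.41, 7.77 and 7.90 in PM, at 10.09, 10.74 and 10.77 in IVM and at 8.08, 8.34, 8.93 and 8.08 in VVM. IVM stood above all other arrays, while PM and VVM overlapped. KCNK3 was higher in IVM than in PM by 2.65 ± 0.27 (6.27-fold, adjusted p = 4.62e-05) and than in VVM by 2.17 ± 0.27 (4.51-fold, adjusted p = 0.000774).

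KCNK5 (719563), TASK-2, which opens in alkaline conditions, lay at 5.45, 5.05, 4.77 and 5.17 in PM, at 6.15, 4.88 and 5.38 in IVM and at 8.98, 7.68, 8.05 and 8.65 in VVM. VVM stood above all other arrays. The rise in VVM was 3.23 ± 0.31 against PM (adjusted p = 3.92e-05), and IVM was lower than VVM by -2.87 ± 0.34 (adjusted p = 0.000625). The 2 probe sets of KCNK5 disagreed: the one used here is marked by the array maker as matching several transcripts, and the other fell in VVM by 0.99. KCNK12, a THIK-type channel, rose in VVM by 1.28 ± 0.19 (adjusted p = 0.000561), with IVM below VVM by -0.79 ± 0.21 (adjusted p = 0.0315), a call lost without any of the IVM arrays and without VVM 1 or VVM 4. KCNK17 was higher in IVM than in VVM by 0.44 ± 0.11 (adjusted p = 0.0296), a call lost without 5 of the 11 arrays, and all its values lay below the array medians.

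Large-conductance calcium-activated (BK) channels combine the pore KCNMA1 with KCNMB subunits that set their calcium sensitivity and gating. KCNMB2 (710221) lay at 9.91, 9.61, 9.59 and 9.90 in PM, at 7.61, 7.87 and 8.33 in IVM and at 8.72, 8.96, 7.93 and 9.01 in VVM. PM lay above both matured groups, with falls of -1.82 ± 0.25 in IVM (adjusted p = 0.000337) and -1.10 ± 0.23 in VVM (adjusted p = 0.00479). KCNMB4 lay at 8.87, 9.12, 8.43 and 9.13 in PM, at 8.86, 8.53 and 8.48 in IVM and at 10.15, 9.57, 9.76 and 10.45 in VVM. Here VVM alone lay apart, higher than PM by 1.09 ± 0.21 (adjusted p = 0.00269), with IVM lower than VVM by -1.36 ± 0.23 (adjusted p = 0.00382), on 2 and 1 of its 4 probe sets.

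The BK pore KCNMA1 was lower in IVM than in PM by -1.60 ± 0.50 (adjusted p = 0.0267), with overlapping groups, on 1 of 3 probe sets, and the call was lost without PM 1, PM 2, PM 3, IVM 2 or IVM 3. KCNAB1, a cytoplasmic beta subunit, rose in VVM by 1.80 ± 0.42 (adjusted p = 0.00742), from 5.59 to 5.88 in PM to 6.89 to 8.84. KCNIP1, a calcium-binding partner of A-type channels, rose by 0.87 ± 0.12 in IVM (adjusted p = 0.000277) and by 0.83 ± 0.11 in VVM (adjusted p = 0.00025). Of the 13 inward rectifiers, 5 rose in each matured group (38.5%, all genes higher 25.0% in IVM and 18.0% in VVM), by at most 0.62 (KCNJ15 in VVM).

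**Figure D3:**
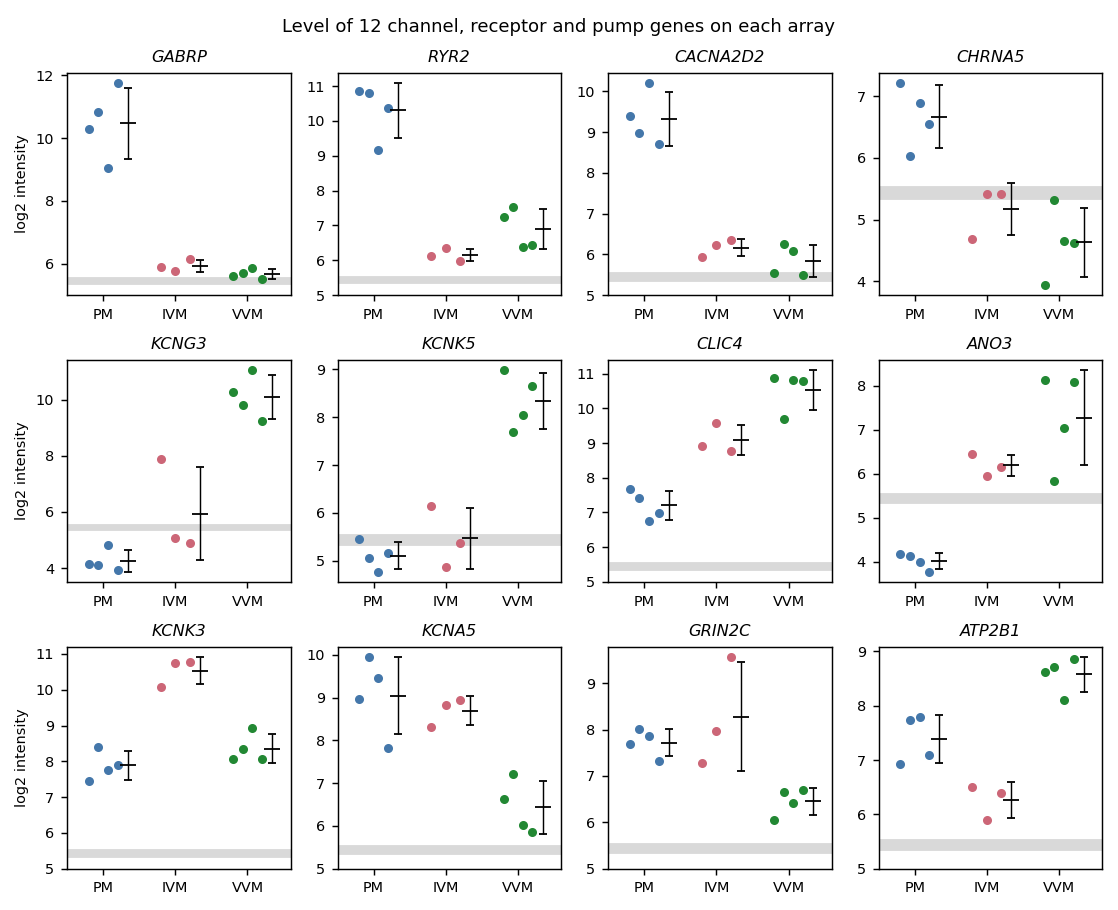
Points are log2 intensities of 12 members on each PM, IVM and VVM array, bars the group mean and SD (n = 4, 3 and 4), and the grey band the range of array medians from 5.34 to 5.53. GABRP, RYR2, CACNA2D2 and CHRNA5 are high in PM, KCNG3 and KCNK5 in VVM and KCNK3 in IVM, and ATP2B1 lies lowest in IVM and highest in VVM.

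Of 17 chloride channel and anoctamin genes, 9 rose and 1 fell in IVM (58.8% called, all genes 45.9%), and 7 rose and 2 fell in VVM (52.9% called, all genes 39.8%), all against PM. CLIC4 (712337), an intracellular chloride channel protein, lay at 7.69, 7.41, 6.75 and 6.99 in PM, at 8.92, 9.57 and 8.77 in IVM and at 10.86, 9.68, 10.81 and 10.78 in VVM. The 3 groups did not overlap, with VVM 2 close to IVM 2. CLIC4 rose against PM by 1.87 ± 0.32 in IVM (adjusted p = 0.00116) and by 3.32 ± 0.30 in VVM (9.99-fold, adjusted p = 2.57e-05, 4 of 4 probe sets). IVM was lower than VVM by -1.45 ± 0.32 (adjusted p = 0.0149), a call lost without IVM 1 (-1.36).

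ANO3 (700072), a member of the anoctamin family of chloride channels and lipid scramblases, lay at 4.18, 4.13, 4.0 and 3.77 in PM, at 6.45, 5.96 and 6.16 in IVM and at 8.14, 5.84, 7.03 and 8.08 in VVM. PM lay below all matured arrays, and VVM was widely spread and overlapped IVM. It rose by 2.17 ± 0.45 in IVM (adjusted p = 0.00335) and by 3.25 ± 0.42 in VVM (adjusted p = 0.000202). ANO6, a calcium-activated scramblase, rose by 0.84 ± 0.18 in IVM (adjusted p = 0.00358) and by 1.50 ± 0.16 in VVM (adjusted p = 7.85e-05) on 1 of its 2 probe sets. Its IVM values lay below VVM by -0.66 ± 0.18 (adjusted p = 0.0353), a call lost without 7 of the 11 arrays.

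CLIC1 rose in IVM by 1.04 ± 0.14 (adjusted p = 0.000268) and in VVM by 0.61 ± 0.13 (adjusted p = 0.00477), on 1 of 2 probe sets. CLCN5, an endosomal chloride-proton exchanger, rose in IVM by 0.98 ± 0.18 (adjusted p = 0.00158) on both of its probe sets. ANO4 fell in VVM by 0.94 ± 0.23 (adjusted p = 0.00878), at 6.72 to 7.47 against 7.51 to 8.39 in PM, and in IVM by 0.71 ± 0.24 (adjusted p = 0.0364), where the groups overlapped.

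Among 16 TRP channels, which are mostly calcium-permeable cation channels, 5 rose and 1 fell in IVM (37.5% called, all genes 45.9%) and 4 rose in VVM (25.0%, all genes 39.8%) against PM. TRPC4, opened downstream of phospholipase C, lay at 3.98, 4.09, 4.23 and 4.02 in PM, at 5.31, 4.18 and 5.01 in IVM and at 7.24, 5.80, 5.87 and 6.02 in VVM. VVM stood above all other arrays, by 2.15 ± 0.32 against PM (adjusted p = 0.000487). IVM was lower than VVM by -1.40 ± 0.34 (adjusted p = 0.023), and the call was lost without IVM 2 (-1.07).

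TRPV2 rose by 1.28 ± 0.18 in IVM (adjusted p = 0.000424) and by 0.66 ± 0.17 in VVM (adjusted p = 0.013). TRPM4, a calcium-activated channel for monovalent ions, was higher in IVM than in PM by 0.71 ± 0.20 (adjusted p = 0.0145), a call lost without IVM 2 (0.52). Its difference of IVM from VVM of 0.69 ± 0.20 (adjusted p = 0.0448) was lost without 8 of the 11 arrays. TRPM7, a channel with a kinase domain, fell in IVM by 0.91 ± 0.27 (adjusted p = 0.0203), a call lost without IVM 1 (-0.69). Its means of 5.40 in PM, 4.48 in IVM and 5.03 in VVM all lay below 5.45. The other probe set of TRPM7 differed by 0.09 in IVM and was not called (adjusted p = 0.6). Among 5 HCN and acid-sensing channels, ASIC4 alone was called, with 0.39 ± 0.14 in IVM (adjusted p = 0.0447), a call lost without 10 of the 11 arrays.

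The calcium store genes held the highest share of calls in VVM against PM of any family with more than 5 genes, 7 of 9 against 39.8% of all genes. RYR2 (717179), a ryanodine receptor that releases stored calcium in response to calcium, lay at 10.86, 10.79, 9.17 and 10.38 in PM, at 6.12, 6.35 and 5.99 in IVM and at 7.24, 7.52, 6.37 and 6.45 in VVM. Every PM array lay above every matured array, and the VVM arrays started just above the IVM arrays. RYR2 was lower by -4.15 ± 0.40 in IVM (17.7-fold, adjusted p = 3.39e-05) and by -3.41 ± 0.37 in VVM (10.6-fold, adjusted p = 7.15e-05), on 2 of 2 probe sets, while IVM and VVM differed by -0.74 ± 0.40 (adjusted p = 0.261). No other RYR gene was among the members.

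All 3 IP3 receptors, the store channels opened by IP3, were higher in both matured groups. ITPR1 (703669) lay at 8.92, 9.38, 9.47 and 8.50 in PM, at 9.92, 9.91 and 10.06 in IVM and at 10.99, 10.60, 10.41 and 10.75 in VVM. The groups did not overlap, in the order PM, IVM, VVM. ITPR1 rose by 0.90 ± 0.22 in IVM (adjusted p = 0.00835) and by 1.62 ± 0.20 in VVM (adjusted p = 0.000184), on 4 of 5 probe sets, and IVM differed from VVM by -0.73 ± 0.22, which did not pass (adjusted p = 0.0564). Without VVM 1, VVM 2 or VVM 3 the highest mean passed to another probe set, which gave 0.49 in IVM and 0.79, 0.94 and 0.96 in VVM, all still called.

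ITPR2 lay at 5.75, 5.64, 5.40 and 5.83 in PM, at 7.85, 7.43 and 6.65 in IVM and at 6.39, 6.58, 6.72 and 7.63 in VVM. Both matured groups lay above PM and overlapped each other, with rises of 1.66 ± 0.31 in IVM (adjusted p = 0.00204) and 1.17 ± 0.29 in VVM (adjusted p = 0.0104). ITPR3 rose by 0.84 ± 0.14 in IVM (adjusted p = 0.00103) and by 0.56 ± 0.13 in VVM (adjusted p = 0.00761). With PM 1, VVM 2 and VVM 3 left out, the VVM rises of ITPR2 (1.39, adjusted p = 0.0599) and ITPR3 (0.48, adjusted p = 0.119) did not pass.

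The store sensors moved in opposite directions. STIM1 (717963) lay at 7.79, 7.78, 8.09 and 7.94 in PM, at 8.98, 8.70 and 8.84 in IVM and at 9.52, 9.44, 9.93 and 9.80 in VVM. The 3 groups did not overlap. STIM1 rose by 0.94 ± 0.15 in IVM (adjusted p = 0.000622) and by 1.77 ± 0.13 in VVM (adjusted p = 1.11e-05), and IVM was lower than VVM by -0.84 ± 0.15 (adjusted p = 0.00439). STIM2 fell in VVM by 0.87 ± 0.22 (adjusted p = 0.0132, 3 of 3 probe sets), while its difference of -0.64 ± 0.24 in IVM did not pass on the probe set used here (adjusted p = 0.0553). Its other 2 probe sets fell in IVM as well, by 1.06 (adjusted p = 0.000307) and 1.35 (adjusted p = 0.00179).

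Of the plasma membrane partners of STIM, ORAI1 and ORAI3 were higher in IVM than in VVM. ORAI1, the pore of store-operated calcium entry, lay at 8.20, 8.62, 9.06 and 8.52 in PM, at 8.35, 8.62 and 8.52 in IVM and at 7.41, 8.13, 7.96 and 7.54 in VVM. VVM lay below both other groups, which overlapped. It fell in VVM by 0.84 ± 0.20 (adjusted p = 0.0087), and IVM was higher than VVM by 0.74 ± 0.22 (adjusted p = 0.0497), a call at the threshold that was lost without 8 of the 11 arrays.

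ORAI3 lay at 7.99, 8.02, 8.03 and 8.10 in PM, at 8.40, 8.76 and 8.63 in IVM and at 7.83, 8.02, 8.01 and 7.84 in VVM. IVM stood above all others, by 0.56 ± 0.11 against PM (adjusted p = 0.00279) and by 0.68 ± 0.11 against VVM (adjusted p = 0.00374). ORAI2 differed by 0.03 and -0.05 from PM and was not called.

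**Figure D4:**
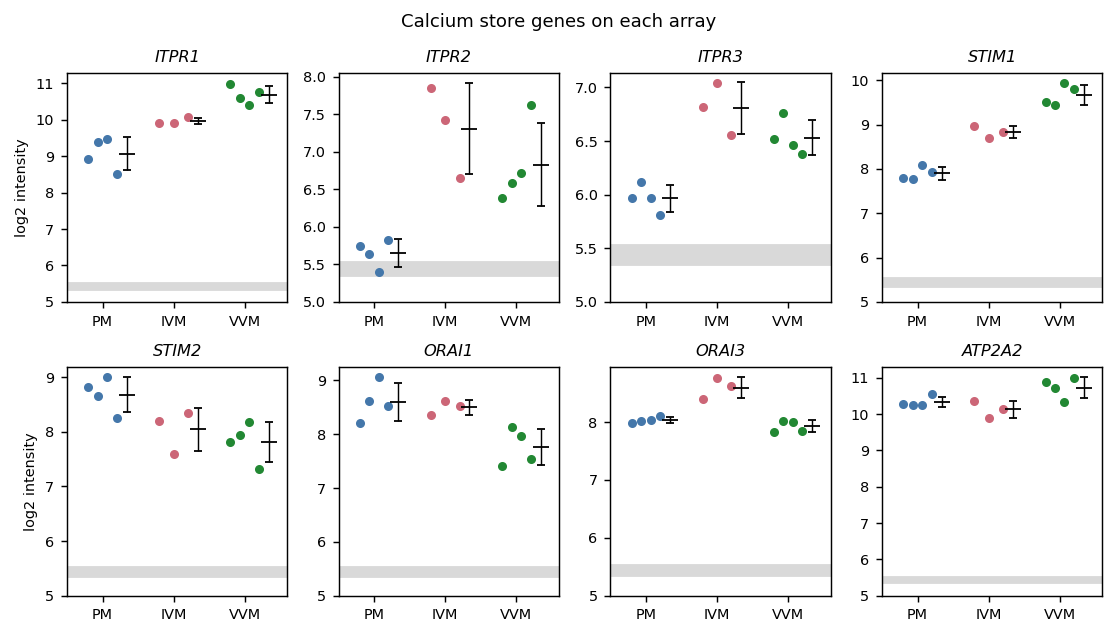
Log2 intensities of 8 calcium store genes on each PM, IVM and VVM array, with the group mean and SD (n = 4, 3 and 4) and the range of array medians in grey. The 3 ITPR genes and STIM1 are lowest in PM, ORAI1 and STIM2 lowest in VVM by their means, and ORAI3 highest in IVM.

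Of the 7 measured calcium pumps, ATP2B1 (709102), which exports calcium across the plasma membrane, was the only member called in opposite directions against PM. It lay at 6.93, 7.73, 7.79 and 7.09 in PM, at 6.51, 5.89 and 6.40 in IVM and at 8.62, 8.72, 8.11 and 8.86 in VVM. The 3 groups did not overlap, with IVM lowest and VVM highest. ATP2B1 was lower in IVM than in PM by -1.12 ± 0.26 (adjusted p = 0.00576), higher in VVM than in PM by 1.19 ± 0.24 (adjusted p = 0.00314), and lower in IVM than in VVM by -2.31 ± 0.26 (4.96-fold, adjusted p = 0.000483). Both decreases in IVM were called on 3 of 3 probe sets, and the rise in VVM on 1 of 3.

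ATP2A2, the SERCA pump that refills the endoplasmic reticulum, was lower in IVM than in VVM by -0.60 ± 0.17 (adjusted p = 0.044), with overlapping groups, and the call was lost without 8 of the 11 arrays. ATP2A3 rose in IVM by 0.71 ± 0.15 (adjusted p = 0.0034) and ATP2A1 in VVM by 0.40 ± 0.12 (adjusted p = 0.0251), the latter at values below the array medians. ATP2B3, ATP2B4 and the secretory pathway pump ATP2C2 were not called in any comparison.

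Of the ATP1A and ATP1B genes, named after the sodium-potassium pump, only ATP1A4, ATP1B1 and ATP1B4 were members on this array. ATP1B1, the beta subunit that carries the pump to the membrane, was higher in VVM than in PM by 0.61 ± 0.18 (adjusted p = 0.024), a call lost without PM 1, PM 4, VVM 3 or VVM 4 and after centring (0.50, adjusted p = 0.0527). Of its 4 probe sets, 3 rose and 1 fell. ATP1B4 was higher in IVM by 0.36 ± 0.10 (adjusted p = 0.0145) at values of at most 3.22, and ATP1A4 was not called.

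**Figure D5:**
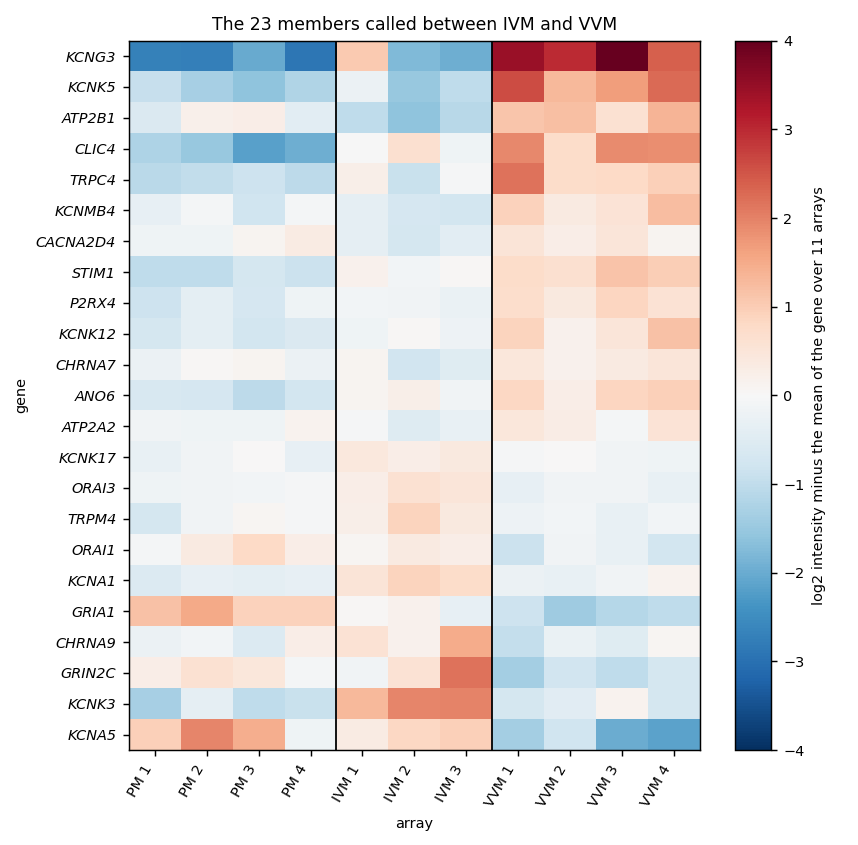
Colour gives the log2 intensity of each of the 23 members called between IVM and VVM minus the gene's own mean over 11 arrays, for each array; rows run from the most negative to the most positive IVM minus VVM difference. KCNG3 at the top is high on the 4 VVM arrays, and KCNA5 at the bottom is low there.

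Set side by side, the 23 members called between the matured groups fell into several patterns of the calls against PM, each on the probe set used here. Of the 13 lower in IVM than in VVM, 6 rose against PM in VVM without a call in IVM (KCNG3, KCNK5, TRPC4, KCNMB4, KCNK12 and P2RX4), and 3 rose in both (CLIC4, STIM1 and ANO6). ATP2B1 was called in opposite directions, CACNA2D4 fell in IVM only, and CHRNA7 and ATP2A2 were called against PM in neither. Other probe sets of CHRNA7 were called in IVM against PM, in both directions. Of the 10 higher in IVM, 6 rose in IVM without a call in VVM (KCNK3, KCNA1, CHRNA9, TRPM4, ORAI3 and KCNK17), 3 fell in VVM without a call in IVM (KCNA5, GRIN2C and ORAI1), and GRIA1 fell in both, in IVM on 1 of its 2 probe sets. Another probe set of GRIN2C was called higher in IVM than in PM and not called in VVM.

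Genes that work beside channels and pumps, taken from lists of regulators, transporters and calcium signalling proteins, were also counted. Of 118 listed, 90 were measured, with 19 rises and 14 falls in IVM against PM and 20 rises and 13 falls in VVM against PM. In IVM against VVM, 3 were higher and 8 lower. The shares called were 36.7% in each comparison with PM (all genes 45.9% and 39.8%) and 12.2% between the matured groups (all genes 16.7%). FKBP1B, a protein that binds and stabilises ryanodine receptors, was higher in IVM at 8.23 ± 0.30 (SD, n = 3) than in PM at 6.14 ± 0.34 (n = 4) or VVM at 6.02 ± 0.21 (n = 4). The differences were 2.09 ± 0.20 (adjusted p = 3.86e-05) and 2.21 ± 0.20 (adjusted p = 0.000169).

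PPP3CC, a catalytic subunit of the calcium-dependent phosphatase calcineurin, rose against PM by 1.26 ± 0.29 in IVM (adjusted p = 0.0065) and by 2.70 ± 0.27 in VVM (adjusted p = 4.93e-05), and was lower in IVM than in VVM by -1.45 ± 0.29 (adjusted p = 0.00962). Of the NFAT factors that calcineurin activates, NFATC4 rose by 1.73 in IVM and 1.84 in VVM, and NFATC1 fell by 2.09 and 1.75 on 2 of its 4 probe sets. In the mitochondrial uniporter, the pore MCU fell by 1.06 in IVM and 1.26 in VVM, while the regulators MICU2 (0.96 and 1.24) and SMDT1 (0.58 and 0.75) rose.

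FXYD6, a regulator of the sodium-potassium pump, was lower in IVM than in VVM by -2.49 ± 0.56 (adjusted p = 0.0157) and than in PM by -1.86 ± 0.56 (adjusted p = 0.0216), and SGK1, a kinase that promotes channel and pump activity, was lower in IVM than in VVM by -1.22 ± 0.26 (adjusted p = 0.0114). Among transporters, the sodium-calcium exchanger SLC8A1 was lower in IVM than in PM by -2.08 ± 0.69 (adjusted p = 0.0321), on 1 of its 3 probe sets, and the potassium-chloride cotransporter SLC12A4 rose by 0.84 in IVM and 1.02 in VVM. The bicarbonate transporter SLC4A7 had no single direction: 1 of its 5 probe sets, the brightest, was higher than PM in both groups, by 0.79 and 1.07, and 3 were lower in both. Among other channels, the irritant receptor TRPA1 fell by 1.23 in IVM and 1.88 in VVM on 1 of 3 probe sets, and LRRC8C, a subunit of volume-regulated anion channels, fell by 1.95 and 1.25.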

How the data were processed

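RNA of 11 cumulus cell samples was measured on Affymetrix arrays. Per the labels, a PicoPure kit served to extract total RNA, which was amplified by repeated rounds of synthesis and in vitro transcription, which bring signal toward the 3' end. The deposited values are linear intensity, made by the authors with RMA, per the submitters' processing notes, which name Affymetrix Expression Console without a version. Log2 of the deposited intensity was taken here with no pseudocount. The table held 52865 probe sets, of which 99 controls were left out. Groups came from the sample titles. limma 3.58.1 in R 4.3.3 fitted 3 group means over all 11 arrays, moderated by empirical Bayes with 3.30 prior and 8 residual degrees of freedom. Two-sided p-values were adjusted by Benjamini-Hochberg over 52766 probe sets in each comparison. The code was tested on simulated data. Array number and signal above background limit the precision. The array annotation gave 24956 probe sets 1 symbol, 361 several and 27449 none, and no member came from a probe set with several.

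Members and gene lists were chosen with earlier results of these data known. Named genes are up to 10 of the largest rises and falls per comparison among called members whose groups did not overlap, up to 4 called members per family by size, all ITPR, RYR, ORAI, STIM, ATP1 and ATP2 genes, and up to 2 called genes in each direction per partner list. CACNA1C, CACNA1D, CLCN3 and CLIC5 are named outside this rule, and their values were not followed over the alternatives. Alternatives covered normalization, filters, choice of probe set, spread, covariates and leaving out arrays. No sequences or genome positions were used here.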

Additional observations from a re-analysis of the deposited data

Results flagged for a closer look

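Among 178 sets of 4 arrays (members named here, in PM and VVM), 7 held an array far from the other 3, where chance is expected to mark about 5% of such sets. CLIC4 lay at 9.68 in VVM 2 against 10.78 to 10.86 on the other VVM arrays, and KCNQ1 at 7.70 in VVM 2 against 7.14 to 7.20. TRPC4 lay at 7.24 in VVM 1 against 5.80 to 6.02, and CACNA1I at 6.03 in VVM 3 against 5.82 to 5.86. In PM, ANO4 lay at 7.51 in PM 2 against 8.29 to 8.39, ATP2A2 at 10.55 in PM 4 against 10.26 to 10.27, and SCN2A at 4.34 in PM 3 against 3.92 to 3.97, all of the latter below the array medians.

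For 8 members the change from PM had opposite signs in IVM and VVM and the direct IVM minus VVM difference passed with limma. ATP2B1 differed by -2.31 (adjusted p = 0.000483), with -1.12 in IVM and 1.19 in VVM, both called. KCNMB4 differed by -1.36 (adjusted p = 0.00382), CACNA2D4 by -0.85 (adjusted p = 0.00632), CHRNA7 by -0.75 (adjusted p = 0.0265) and ATP2A2 by -0.60 (adjusted p = 0.044). GRIN2C differed by 1.82 (adjusted p = 0.0174), CHRNA9 by 1.15 (adjusted p = 0.0382) and ORAI3 by 0.68 (adjusted p = 0.00374). In these other 7 at most 1 of the opposite changes from PM passed by itself.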

How the results depend on the processing

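The array carries 1 linear summary per probe set with no detection calls, groups of 3 and 4 limit the spread estimate, and hybridization controls and 3' bias run with the groups. Over 26 alternatives, values of the 89 named members kept direction and side of the threshold in 3718 cases, lost a call in 523, gained one in 39 and changed sign in 40; causes were not tested. With the hybridization controls as covariate, higher and lower counts were 0 and 2 for IVM against VVM, 0 and 0 for IVM against PM and 15 and 9 for VVM against PM. With the 3' minus 5' level as covariate they were 24 and 7 for IVM against PM and 29 and 11 for VVM against PM. At least 2-fold, they were 5 and 6, 8 and 10, and 14 and 10 in the same order of comparisons. With a mean log2 of at least 6, rises against PM numbered 32 in IVM and 25 in VVM, and at or above the median probe set 44 and 34, with fewer genes tested. For IVM against VVM, adjustment over genes only gave 16 higher and array weights 6 higher and 8 lower. Without PM 1, VVM 2 and VVM 3, 5 members were higher in IVM than in VVM and 23 in VVM than in PM. Leaving out 1 array gave 7 to 16 higher (16 without IVM 3) and 8 to 15 lower (8 without IVM 2) for IVM against VVM, 59 to 85 and 10 to 15 for IVM against PM, and 43 to 64 and 14 to 20 for VVM against PM. Residual correlations of same-numbered samples lay at -0.107 to 0.101. With groups of 3 and 4 these cannot show whether the numbers pair samples, and the labels do not say. A replicate block gave 11 and 10, 65 and 14, and 52 and 18. Signs changed as follows. IVM against VVM: KCNK5 0.14 without cross-hybridizing probe sets, ATP1A4 0.28 and ATP1B4 -0.26 by largest variance, ATP1A4 0.03 without IVM 3 (other single arrays down to -0.14), ATP2A1 0.09 without IVM 2 (down to -0.16), and, with hybridization controls, ATP2A1 0.08, ATP2B3 -0.07 and ITPR2 -0.13, and ORAI2 -0.01 without PM 1, VVM 2 and VVM 3. IVM against PM: with hybridization controls KCNMB3 0.64, KCNN1 -0.21, SCN2A -0.08, ATP1A4 -0.15, ATP1B1 -0.71 and ATP2A2 0.19, by largest variance ASIC4 -0.37 and ATP1B4 -0.20, after centring ATP1A4 -0.01, ATP1B1 -0.03 and ORAI2 -0.11, after quantile normalization ATP1A4 -0.04, ATP2A2 0.06, ORAI1 0.23 and ORAI2 -0.02, ATP1B1 -0.37 without cross-hybridizing probe sets and -0.27 with the 3' covariate, -0.01 without PM 4 and -0.06 without IVM 1 (up to 0.30), and ORAI1 0.05 without PM 3 (down to -0.24). VVM against PM: KCNK5 -0.99 without cross-hybridizing probe sets, KCNJ10 -0.06 by largest variance, ATP2A3 -0.00 and ORAI2 0.08 with hybridization controls, ORAI2 0.05 without PM 1, VVM 2 and VVM 3, ORAI3 0.12 after quantile normalization, and ATP2C2 -0.04 after centring and -0.04 after quantile normalization, -0.06 without PM 2, -0.01 without PM 3 and -0.06 without VVM 1 (up to 0.31).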
